A study of Mus musculus with 2 samples.

Results

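Vomeronasal receptor genes were described in a single map of CpG methylation of the mouse epiblast. Members were the autosomal RefSeq genes whose symbols begin with Vmn1r (V1R, 372 genes) or Vmn2r (V2R, 251 genes), 623 of 47042 autosomal genes in the annotation. A further 22 members on the X and Y were left out. Both families are rich in pseudogenes, with 142 of 372 V1R and 129 of 251 V2R entries. The map came from whole-genome bisulfite sequencing of the epiblast, the layer of the early embryo that forms the fetus. The labels list 2 samples, both wild-type XX epiblasts of C57Bl6/J mice at embryonic day 6.5, from natural matings and without embryo culture. No sample carries a mutation or treatment, and there is no other group. The counts form 1 table without a column per sample, so no value has a replicate error and no p-value was computed. Comparisons are between genes and regions of that table.

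Vomeronasal receptors detect pheromones and other chemical signals in sensory neurons of the vomeronasal organ, an organ that is not yet formed at the stage sampled. V1R proteins are encoded by a single coding exon and signal through Gαi2, whereas V2R proteins have a long extracellular domain spread over several exons and signal through Gαo. A neuron typically uses very few of these genes, and the genes lie in clusters of recent copies. Methylation of CpGs is generally high in the genome and low at CpG-dense promoters.

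Regions follow the mm10 assembly. A gene end is the 1001 bp window centred on the first or the last base of a gene. The gene body runs between these bases, and the flanks are the 100 kb on each side. A level is the percentage of read counts that were methylated, given for regions with at least 20 read counts, and many are followed in parentheses by their 95% interval (Clopper-Pearson, exact). Such an interval holds counting error and nothing else, since a read can span several CpGs and carries no molecular identifier. A region was called low when its upper bound was under 20%, high when its lower bound was over 60%, intermediate when the interval lay within 20% to 60%, and otherwise unresolved.

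The starts of these genes are best seen in their sequence. RefSeq (GRCm38.p6) gives a promoter of 300 bases, 250 before and 50 after the annotated start, for 206 V1R and 116 V2R genes. The median was 1 CpG in V1R, 1 in V2R and 1 in olfactory receptor (Olfr) promoters, compared with 7 in all 25748 autosomal promoters. No CpG at all was found in 21.4% of V1R and 28.4% of V2R promoters, against 5.58% of all. Members with known ligands, a fully copied promoter, a methylated start and the only CpG-dense receptor start are printed here, 5′ to 3′, with CpGs in capitals. Vmn1r49, a receptor for 2-heptanone, is at chr6:90072969-90073268 on the minus strand. Vmn1r107 is at chr7:20668668-20668967 on the plus strand, Vmn2r2 at chr3:64137431-64137730 on the minus strand, and Vmn2r116, the receptor of the tear peptide ESP1, at chr17:23384553-23384852 on the plus strand. Vmn2r29 is at chr7:7278240-7278539 on the minus strand.
Vmn1r49: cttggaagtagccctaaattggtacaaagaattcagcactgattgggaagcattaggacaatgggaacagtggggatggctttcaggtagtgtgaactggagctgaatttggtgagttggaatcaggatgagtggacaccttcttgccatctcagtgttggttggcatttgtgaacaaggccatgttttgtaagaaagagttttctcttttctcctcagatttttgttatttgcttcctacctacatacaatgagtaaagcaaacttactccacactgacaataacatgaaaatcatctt
Vmn1r107: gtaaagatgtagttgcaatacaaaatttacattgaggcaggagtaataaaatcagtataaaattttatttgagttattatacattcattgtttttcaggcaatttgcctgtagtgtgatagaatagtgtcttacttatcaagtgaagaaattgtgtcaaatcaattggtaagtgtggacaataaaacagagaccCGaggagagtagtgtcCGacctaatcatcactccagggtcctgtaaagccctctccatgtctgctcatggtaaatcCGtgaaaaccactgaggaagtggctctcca
Vmn2r2: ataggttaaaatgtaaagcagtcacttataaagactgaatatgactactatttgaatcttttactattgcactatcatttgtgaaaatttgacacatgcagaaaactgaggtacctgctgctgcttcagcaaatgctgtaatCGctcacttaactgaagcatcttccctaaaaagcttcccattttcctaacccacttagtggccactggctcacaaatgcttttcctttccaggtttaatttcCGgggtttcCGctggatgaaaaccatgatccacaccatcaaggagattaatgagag
Vmn2r116: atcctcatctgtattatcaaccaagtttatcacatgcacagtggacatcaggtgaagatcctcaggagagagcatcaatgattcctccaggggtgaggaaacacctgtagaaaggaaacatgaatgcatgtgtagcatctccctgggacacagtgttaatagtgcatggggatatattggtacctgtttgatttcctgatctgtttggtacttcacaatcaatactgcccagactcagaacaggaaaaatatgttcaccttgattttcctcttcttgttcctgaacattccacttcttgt
Vmn2r29: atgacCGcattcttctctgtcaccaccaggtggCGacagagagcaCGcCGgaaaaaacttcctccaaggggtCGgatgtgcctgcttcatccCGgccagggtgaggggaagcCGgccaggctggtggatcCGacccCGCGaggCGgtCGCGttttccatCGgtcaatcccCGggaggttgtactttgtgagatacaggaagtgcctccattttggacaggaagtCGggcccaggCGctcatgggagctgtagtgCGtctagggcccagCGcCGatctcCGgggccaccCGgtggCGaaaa

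The promoters of Vmn1r49 and Vmn2r116 hold no CpG, so methylation of CpGs cannot be measured in them. Vmn1r107 has 3 CpGs and 0 reads. Vmn2r2, a family C receptor of the kind expressed together with other V2Rs, has 3 CpGs. In the order of the sequence, 1 of 1, 8 of 9 and 7 of 9 read counts were methylated. V2R promoters had an upper quartile of 2 CpGs. The annotated start of Vmn2r2 lies inside the span of the gene, whose highest coordinate is 64170917. Vmn2r29 has 23 CpGs, and 34 of 137 read counts were methylated, or 24.8% (17.8% to 32.9%). The lowest run was at positions -103, -101 and -91 from its start, where these neighbouring CpGs had 0 methylated of 9 read counts each. At position -120, 5 of 8 read counts were methylated.

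Few members could be measured in full. Of the 623, 7 had annotated positions that precede the first listed CpG of their chromosome and were not measured. Among the remaining 616, the gene body passed 20 read counts in 109 of 366 V1R and 181 of 250 V2R genes. Both ends combined passed in 189 V1R and 104 V2R genes. A body or a single end passed in 169 V1R and 193 V2R genes. In 61 V1R and 7 V2R genes, neither the body nor the ends held a read. V1R bodies just inside the minimum, with 20 to 24 read counts, had levels of 22.7% to 95.5% with a median of 73.3% (38 genes). Those just outside, with 15 to 19 read counts, had 37.5% to 86.7% with a median of 61.1% (27 genes). For V2R bodies the medians were 79.2% just inside (5 genes) and 53.3% just outside (9 genes). In both families the median was thus lower just below the minimum than just above it.

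Receptor genes were methylated at both ends and in the body at about the level of the DNA around them. The median level of both ends was 70.8% in V1R (interquartile range 60% to 76.7%) and 66.7% in V2R (58.5% to 76.8%). In gene bodies it was 70.6% in V1R (60% to 77.5%) and 66.8% in V2R (60.9% to 71.9%). The flanks had medians of 70.3% in V1R and 68.0% in V2R. The quartile ranges of the families overlap in each region.

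**Figure D1:**
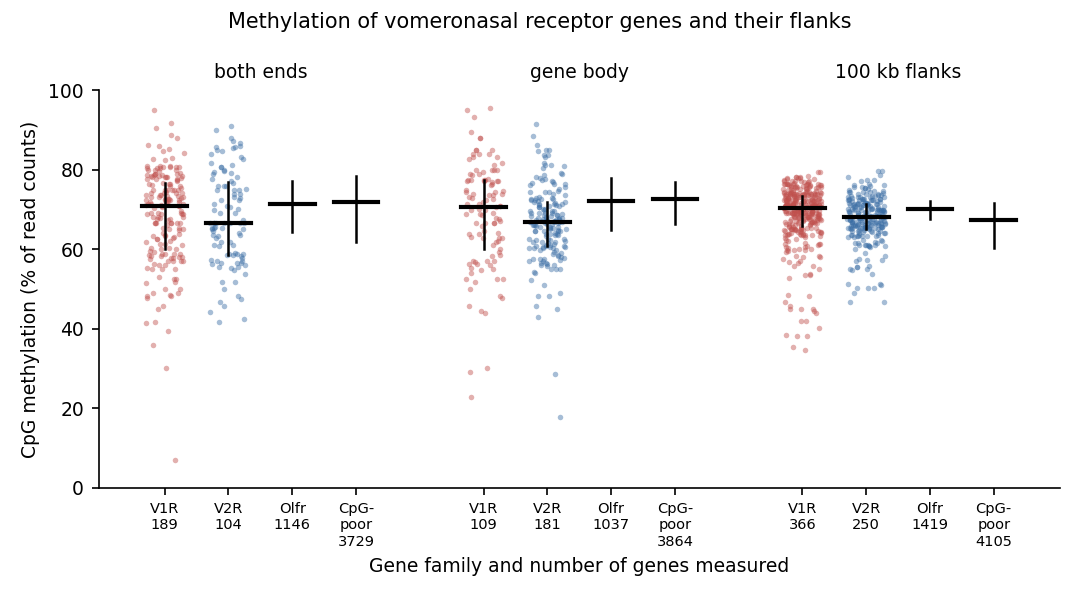
CpG methylation of both gene ends, the gene body and the 100 kb flanks, as percent of read counts. Points are single V1R and V2R genes, thick bars are medians, thin lines are interquartile ranges, and the numbers under the axis are genes measured. Olfr genes and other protein-coding genes with fewer than 20 CpGs at the annotated start are shown as medians and ranges. The V1R and V2R medians lie between 66.7% and 70.8% in every region.

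At the gene ends the receptor medians were nearer to those of other CpG-poor genes than to that of all protein-coding genes, whereas the V2R body median lay nearer to all protein-coding genes. For Olfr genes, the other large chemoreceptor family, the medians were 71.4% at the ends and 72.1% in the body. Other protein-coding genes with a CpG-poor start had 71.9% at the ends and 72.6% in the body. Over all other protein-coding genes the ends had a median of 20.2% and the body 64.3%. A lower-coordinate end window held a median of 4 CpGs in V1R, 3 in V2R, 5 in Olfr, 9 in protein-coding genes with a CpG-poor start and 15 in other protein-coding genes. The end and body medians had the same order as these numbers from V2R up to protein-coding genes with a CpG-poor start, whereas other protein-coding genes as a whole had the most CpGs and the lowest medians. The part of CpG number in the levels was not tested. Across genes, body level and CpGs per kb had a Pearson correlation of 0.21 in V1R (109 genes) and 0.30 in V2R (181 genes).

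The V1R median exceeded the V2R median by 4.17 points at the ends and by 3.77 points in the body. Neither difference kept its sign under all alternatives. With at least 50 read counts the ends differed by -1.09 points (50 V1R and 22 V2R genes). With 500 bp removed at each end of the body the bodies differed by -0.081 points. That cut left 16 V1R and 167 V2R bodies measured, as the median length of a V1R gene is 921 bp. Without the minimum, summed counts gave 63.6% (62.7% to 64.6%) in V1R ends and 67.3% (66.2% to 68.5%) in V2R ends. V1R bodies summed to 65.9% (64.8% to 67.0%) and V2R bodies to 67.6% (67.3% to 67.9%), so the order of the families turned. A single member, Vmn1r4, held 921 of the 10428 read counts in V1R ends. Its body held 1115 of the 7741 read counts in V1R bodies. Without Vmn1r4, left out after its values were seen, the V1R ends summed to 69.1% (68.2% to 70.1%) and the V1R bodies to 68.2% (67.0% to 69.3%). Both sums were then higher in V1R than in V2R, with intervals that overlap those of V2R. No V2R member was left out in turn, although Vmn2r-ps15 and Vmn2r29, described below, also have poorly methylated regions with many reads. The order without Vmn1r4 is therefore one-sided and does not rank the families.

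Levels of pseudogenes and protein-coding members overlapped. V1R pseudogenes had a median body level of 74.4% (25 genes) and protein-coding V1R genes 69.0% (84 genes). V2R pseudogenes had 69.0% (67 genes) and protein-coding V2R genes 66.4% (114 genes). The quartile ranges overlap in both families.

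Calls for single ends were mostly high or unresolved. In V1R, 54 of 201 measured single ends were high, 1 low, 1 intermediate and 145 unresolved. In V2R, 32 of 86 were high, 0 low, 1 intermediate and 53 unresolved. Among all measured single ends of autosomal genes, 40.7% were high, 32.2% low and 4.62% intermediate. With most receptor ends unresolved, these shares were not compared further. Many receptor ends were too shallow to be called, with a median interval width of 33.9 points for the lower-coordinate end in V1R. At annotated starts, 6 of 30 V1R and 2 of 19 V2R windows were high, 0 were low in either family, and 1 V2R window was intermediate. The remaining 24 V1R and 16 V2R start windows were unresolved. In all genes 15.0% of starts were high, 64.7% low and 4.20% intermediate. Olfr starts were 37.8% high and 0.19% low, and CpG-poor starts of other protein-coding genes were 49.5% high and 1.03% low. The median level at the start was 70.4% in V1R and 61.9% in V2R.

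The bodies gave 32 high calls among 109 V1R genes and 97 among 181 V2R genes, against 52.9% of all gene bodies. The intermediate call fell on 1 V1R and 3 V2R bodies, against 28.0% of all, and no receptor body was low, against 4.90%. Unresolved were 76 V1R and 81 V2R bodies. Olfr bodies were 44.2% high, 0.77% intermediate and 0.096% low. Bodies of other protein-coding genes with a CpG-poor start were 76.1% high, 9.08% intermediate and 1.11% low. V1R genes are shorter, with a median of 921 bp compared with 16090 bp in V2R, and their body intervals had a median width of 33.6 points, compared with 12.3 points in V2R. The intermediate bodies, chosen after their values were seen, were Vmn1r4 (52.5%), Vmn2r84 (42.9%) and the pseudogenes Vmn2r-ps17 (56.0%) and Vmn2r-ps46 (49.0%).

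Body and flanks were compared gene by gene. The median of body minus flanks was 1.09 points in V1R and -1.38 points in V2R. The V1R value changed sign under 6 of 12 alternatives, whereas the V2R value stayed negative in 12 of 12. By interval, the body lay above its flanks in 8 and below them in 7 of 109 V1R genes. In V2R it lay above in 29 and below in 48 of 181. Among autosomal genes other than the members, 39.4% of bodies lay above and 43.4% below their flanks. Across genes, body and flank levels had a Pearson correlation of 0.36 in V1R (109 genes) and 0.25 in V2R (181 genes), over neighbours that often share flanks and reads.

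**Figure D2:**
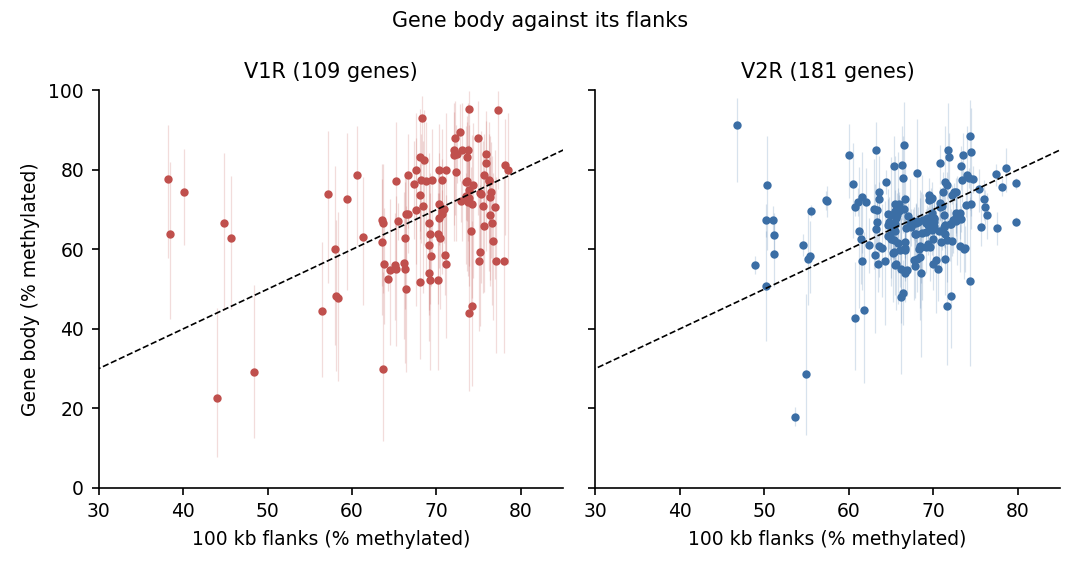
Level of the gene body against that of its 100 kb flanks, both in percent, for V1R genes on the left and V2R genes on the right. Vertical lines are exact 95% intervals of the body and the dashed line marks equal levels, with most genes on both sides of it near flanks of 60% to 80%.

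Family C of the V2Rs, whose members are co-expressed with other V2Rs, had methylated bodies on chromosome 3. Vmn2r1 was at 76.6% (75.2% to 78.0%), Vmn2r2 at 75.8% (73.3% to 78.1%) and Vmn2r7 at 74.4% (70.5% to 78.1%). Vmn2r4 was at 70.6%, Vmn2r5 at 67.4%, Vmn2r6 at 67.1% and Vmn2r3 at 65.4% (61.1% to 69.5%). All except Vmn2r5 were called high, a call given to 52.9% of all gene bodies and 53.6% of V2R bodies. The intervals of Vmn2r1 and Vmn2r3 do not overlap, although both had flanks above 77%, at 79.8% and 77.5%. Vmn2r2 lies within the annotated span of Vmn2r1 and shares its reads, and Vmn2r7 lies within that of the pseudogene Vmn2r-ps11.

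Receptors with a known ligand had body levels of 71.4% to 74.5% in V1R and 54.9% to 70.9% in V2R where measured, inside family ranges of 22.7% to 95.5% in V1R and 17.9% to 91.4% in V2R. Vmn2r26, which responds to peptides bound by MHC class I, was at 70.9% (67.1% to 74.5%) in the body, with flanks at 71.1%. Vmn2r116, the ESP1 receptor, was at 54.9% (48.3% to 61.4%) and its neighbour Vmn2r115, the receptor of the juvenile peptide ESP22, at 56.0% (48.5% to 63.3%). Their flanks were at 66.9% and 65.5%, above the upper bounds of the bodies. Among receptors of sulfated steroids, Vmn1r85 was at 74.5% (61.0% to 85.3%) in the body and Vmn1r89 at 71.4% (55.4% to 84.3%). The body of Vmn1r49 had 13 read counts, below the minimum, of which 12 were methylated.

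The most methylated V1R bodies were those of Vmn1r-ps130 (95.5%), Vmn1r208 (95%) and Vmn1r88 (93.2%). The least methylated were those of Vmn1r-ps135 (22.7%), Vmn1r55 (29.2%) and Vmn1r234 (30%), over 20 to 24 read counts each and with upper bounds of 45.4%, 51.1% and 54.3%. In V2R the highest were Vmn2r-ps18 (91.4%), Vmn2r-ps135 (88.5%) and Vmn2r-ps28 (86.4%), all pseudogenes. The lowest were Vmn2r-ps15 (17.9%), Vmn2r-ps109 (28.6%) and Vmn2r84 (42.9%). Most of these extremes rest on short bodies with few reads, apart from Vmn2r-ps15 with 1120 read counts.

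The largest excesses over the flanks were found beside poorly methylated flanks in V1R. Vmn1r188 exceeded its flanks by 39.5 points (body 77.8%, flanks 38.3%), Vmn1r85 by 34.4 points (flanks 40.1%) and Vmn1r86 by 25.6 points (flanks 38.4%). Around Vmn1r188 lie the histone genes H2bc11, H2ac11 and H4c9 and several tRNA genes, and around Vmn1r85 lies Trim28, a corepressor gene. With every annotated gene removed the flanks were at 45.3% for Vmn1r188, 60.2% for Vmn1r85 and 59.5% for Vmn1r86. Much of the excess of Vmn1r85 and Vmn1r86 was thus absent against those flanks, whereas that of Vmn1r188 changed less. In V2R the pseudogene Vmn2r-ps18 exceeded its flanks by 44.7 points (flanks 46.7%), Vmn2r-ps95 by 26.0 points (flanks 50.3%) and Vmn2r-ps3 by 23.7 points (flanks 60.1%). With annotated genes removed the flanks were at 41.8% for Vmn2r-ps18, 49.98% for Vmn2r-ps95 and 80.9% (79.2% to 82.4%) for Vmn2r-ps3, so most of the excess of Vmn2r-ps3 was absent against those flanks.

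Below their flanks lay other members. Vmn1r234 lay 33.7 points below its flanks (body 30%, flanks 63.7%), Vmn1r42 lay 29.8 points below (body 44.0%) and Vmn1r91 lay 28.4 points below (body 45.8%). Each had 20 to 25 read counts. In V2R, Vmn2r-ps15 lay 35.8 points below its flanks, Vmn2r-ps109 lay 26.4 points below and Vmn2r69 lay 26.1 points below (body 45.7%, flanks 71.7%).

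The annotated span of Vmn2r-ps15 (chr4:145701675-145775917) overlaps the zinc finger gene Zfp980 and noncoding genes. Its low body came from a pair of CpG-dense stretches. The 5 kb bin from 40 kb after its first base had 142 CpGs and 581 read counts at 7.23%, and the last bin, from 70 kb, had 83 CpGs and 376 read counts at 9.04%. The other bins with at least 20 read counts were at 60% and 73.1%. Vmn2r-ps18 lies within Zfp978, and its end windows held 237 read counts on 8 CpGs at the lower-coordinate end.

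A low or intermediate end was found in 3 members, and each has its own surroundings. The number was 9 with end windows of 1000 bp on either side and 9 with thresholds of 30% and 70%. The lower-coordinate end of Vmn1r4 (chr6:56923414-56924414) was low at 6.18% (4.70% to 7.95%) over 80 CpGs and 906 read counts. It overlaps the upstream boundary of the nucleotidase gene Nt5c3, which lies on the minus strand. That boundary, the highest coordinate of Nt5c3 at 56924008, falls inside the span of Vmn1r4. The annotated start of Nt5c3 is given at 56901886, outside this window. The annotated start of Vmn1r4 lies elsewhere in its span, and the window around it had 9 read counts. The level was 4.64% in the 250 bp just before the first base of Vmn1r4, 12.3% from 250 bp after it and 32.3% from 500 bp after it.

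Vmn2r29, a protein-coding V2R, had the only intermediate V2R end. Its start window held 63 CpGs and 367 read counts at 43.9% (38.7% to 49.1%), and the 300 bases printed above make up its least methylated part. The 250 bp just upstream of the start were at 23.7% (16.7% to 31.9%), the first 250 bp inside the gene at 47.2% (38.9% to 55.7%), the next 250 bp at 68.6% (57.7% to 78.2%) and the 250 bp after those at 41.8% (28.7% to 55.9%, 8 CpGs). The level was thus lowest just upstream of the start and did not change in a single direction inside the gene. No stretch of 50 bases in this promoter occurs in another promoter of the RefSeq table.

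The pseudogene Vmn1r-ps135 on chromosome 13 was intermediate at its higher-coordinate end, at 28.7% (20.2% to 38.6%) over 14 CpGs and 101 read counts. The tRNA gene n-TIaat15 lies within 1 kb beyond that end. From 750 bp past the end the level was 5.60% (2.28% to 11.2%). The part of this neighbour in the value was not tested.

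The lowest and highest single ends were otherwise shallow. After Vmn1r4, the lowest V1R ends were in Vmn1r91 (28.6%, 21 read counts) and Vmn1r-ps135. The lowest V2R ends were in Vmn2r-ps109 (33.3%), Vmn2r57 (41.7%) and Vmn2r27 (42.9%), with 21 to 24 read counts. The highest were in Vmn1r-ps27 (96.0%), Vmn1r-ps124 and Vmn1r-ps99 (95% each), and in Vmn2r-ps135 (92.0%), Vmn2r-ps110 (91.3%) and Vmn2r-ps112 (90.6%).

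Counts were summed in bins of 500 bp around the annotated starts. V1R genes stayed flat, between 64.6% and 74.2% over 10 kb on either side. V2R genes were lower in most bins from just before the start onward. In the bin just upstream, V1R genes were at 69.0% (65.3% to 72.5%) and V2R genes at 54.6% (50.9% to 58.3%), or 61.6% (57.6% to 65.6%) without Vmn2r29. From 1000 bp inside, V1R genes were at 68.2% (65.4% to 71.0%) and V2R genes without Vmn2r29 at 57.5% (53.5% to 61.5%). Without Vmn2r29, the V1R interval lay above the V2R interval in 10 of 20 downstream bins and in 0 of 20 upstream bins, and below it in 1 upstream bin. Beyond about 1 kb a downstream bin lies past the end of most V1R genes but within most V2R genes.

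**Figure D3:**
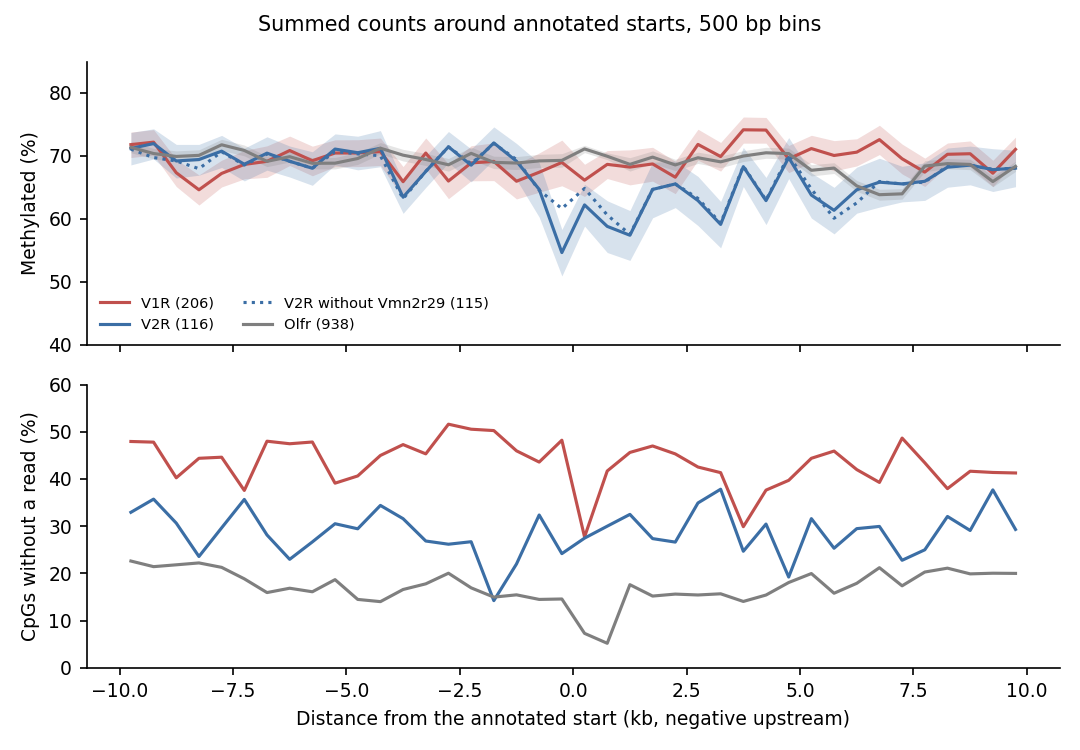
Level (upper panel, percent of summed read counts with exact 95% intervals) and CpGs without a read (lower panel, percent) in 500 bp bins by distance from the annotated start in kb. Numbers in the legend are genes, and the dotted line leaves out Vmn2r29. The V2R line is lowest in the bin just upstream of the start, and without Vmn2r29 in the bin from 1000 bp inside. V1R genes have the largest share of CpGs without a read in most bins.

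Read depth was low over the receptor genes. On the autosomes 10.13% of 20383623 CpGs had no read and the median depth was 6. Summed over the members, 32.9% of CpGs in V1R bodies and 37.4% in V2R bodies had no read, compared with 11.3% in Olfr bodies. Flanks without a read had medians of 24.5% in V1R, 26.4% in V2R, 19.8% in Olfr and 4.23% in other protein-coding genes. Bodies in which every CpG lacked a read made up 67 of 351 V1R genes with a CpG (19.1%) and 7 of 241 V2R genes (2.90%), compared with 15 of 1394 Olfr genes (1.08%) and 107 of 19092 other protein-coding genes (0.560%). V1R bodies hold few CpGs, with a median of 4. The V1R bodies without any read that held the most CpGs were those of Vmn1r-ps79 (14 CpGs), Vmn1r62 (11) and Vmn1r132 (9). In V2R they were Vmn2r46 (54 CpGs), Vmn2r-ps39 (17) and Vmn2r-ps31 (3).

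Copied sequence moved with missing reads. At least 50% of the 50-base stretches of a promoter occurred in another promoter in 71 of 206 V1R genes (34.5%). The same held in 24 of 116 V2R genes (20.7%) and 16 of 938 Olfr genes (1.71%). Chromosome 7 holds 67 of these V1R and 18 of these V2R genes, but only 115 of the 206 V1R genes. Genes with and without copied promoters thus also differ in place. In those 71 V1R genes the 1 kb window at the start held 0.833 reads per CpG, and 48 windows had no read. V1R genes with no shared stretch had 3.97 reads per CpG, and 11 of 93 windows had no read. In V2R the depths were 1.34 reads per CpG with shared stretches and 3.82 without. All 300 bases were identical to those of another family member in 54 V1R genes, in 21 groups of up to 6 genes, in 8 V2R genes and in 4 Olfr genes. No read was found in 44 of the 54 V1R windows. The Vmn1r107 promoter printed above shares all of its stretches with other promoters, among them that of Vmn1r155, and 38 other genes share at least 1 stretch with it. Whether copied sequence or the place on chromosome 7 set the missing reads was not tested.

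Members closer than 1 Mb formed 45 clusters, of which 14 held at least 10 members and 544 members in all. Summed body levels of these 14 ranged over 60.9% to 73.8%. The highest was the V2R cluster of chromosome 3, which holds family C, at 73.8%. The lowest was a V1R cluster of chromosome 6 at 60.9%, which holds Vmn1r4, and without Vmn1r4 its bodies were at 68.3% (65.7% to 70.9%). The ends of that cluster were at 39.8% with Vmn1r4 and 69.1% (66.2% to 71.9%) without it. Among whole cluster spans, the V1R cluster of chromosome 13 was highest at 75.8%.

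**Figure D4:**
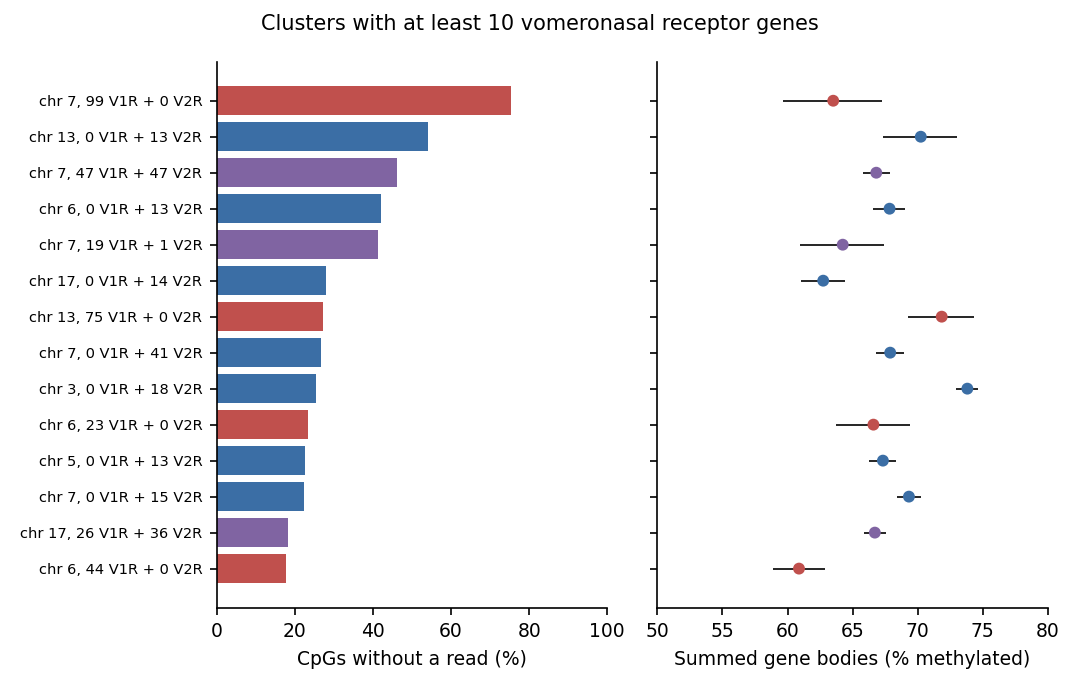
Share of CpGs without a read over the whole span (left, percent) and level of the summed gene bodies (right, percent with exact 95% intervals) in the 14 clusters with at least 10 members. Red marks V1R clusters, blue V2R clusters and purple clusters with both, and the largest V1R cluster of chromosome 7 stands apart in coverage at 75.4% without a read.

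Coverage differed far more between clusters. The share of CpGs without a read was 17.7% to 54.1% in 13 clusters and 75.4% in the V1R cluster of chromosome 7 (chr7:20101158-24055691, 99 members, 1.16 reads per CpG). In that cluster 49 of 99 members had no read in body or ends, and 13 bodies were measured. Over its span the level was 70.3%.

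In a chromosome 7 cluster that holds 47 V1R and 47 V2R genes, V1R bodies had a median of 72.7% and V2R bodies 61.0%. Summed counts gave 71.0% for V1R and 66.3% for V2R bodies. Flanks without a read had medians of 17.8% for these V1R and 68.1% for these V2R genes, so depth and family cannot be told apart there. In the chromosome 17 cluster with 26 V1R and 36 V2R genes the order was the opposite, with body medians of 55.6% in V1R (6 genes measured) and 66.3% in V2R (30 genes measured). The family difference therefore did not have a single direction across these shared clusters. In each of them, the flank levels had the same order as the bodies. Flank medians were 71.67% for V1R and 64.32% for V2R genes in the chromosome 7 cluster. In the chromosome 17 cluster the flank medians were 63.9% for V1R and 70.04% for V2R genes. The part of the flanks in the family difference was not tested. Another shared cluster of chromosome 7, with 19 V1R genes and 1 V2R gene, was not compared.

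**Figure D5:**
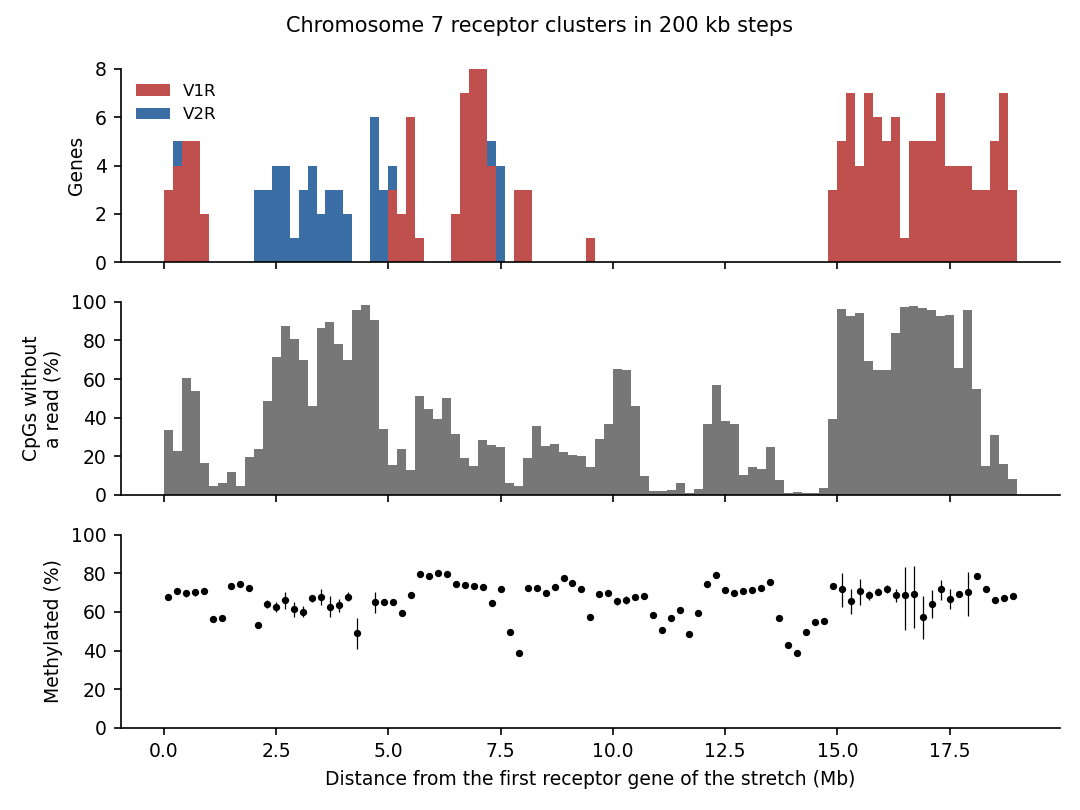
Number of V1R and V2R genes, share of CpGs without a read in percent and level in percent with exact 95% intervals, in 200 kb steps along chromosome 7 by distance in Mb from the first receptor gene of the stretch. Steps with V1R genes alone reach 97.6% of CpGs without a read, while their median level is 69.8%.

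Along 18.9 Mb of chromosome 7, the 35 steps of 200 kb with V1R genes alone had a median of 53.9% of CpGs without a read, the 14 with V2R genes alone 70.7%, and the 43 with no receptor gene 19.8%. More than 90% of CpGs lacked a read in 10 V1R, 1 V2R and 2 receptor-free steps. Median levels were 69.8% in V1R steps, 64.6% in V2R steps and 69.5% in steps with no receptor gene.

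Other genes of the vomeronasal organ, 53 of 54 listed entries that matched the annotation, were read at their annotated start or, where no strand was given, at both ends. Of all annotated starts, 64.7% were low and 15.0% high. All 10 transcription factor genes of the sensory lineage were low, among them Bcl11b, needed for V2R neurons, at 5.08% and Tfap2e, which marks the V2R lineage, at 12.6%. In signalling, 8 of 11 genes were low, near the share of all starts. The G protein genes used with V1R and V2R were both low, Gnai2 at 16.7% and Gnao1 at 5.01%. Trpc2, the channel that carries the sensory current, was high at 79.8% (71.7% to 86.5%) over 11 CpGs. Omp, a marker of mature sensory neurons, was high at 78.1% (74.4% to 81.5%) although its ends held 48 CpGs. Starts in families with clustered copies were high or unresolved. Among H2-Mv genes, whose products accompany V2R receptors, 5 of 8 measured starts were high and 0 low, against those shares of 15.0% and 64.7%. These measured starts held 6 to 13 CpGs. In other protein-coding genes with a CpG-poor start, 49.5% of starts were high and 1.03% low. Formyl peptide receptor genes gave 1 high of 3, and genes of exocrine gland-secreting peptides, pheromones such as ESP1, gave 2 high of 6, with 0 low in either.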

How the data were processed

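The methylated and unmethylated read counts per CpG and strand were deposited by the authors as 1 table of 43816016 lines without a header. Per the submitters' processing notes, the build was mm10 and the tools named were Bowtie2 2.1.0, Bismark 0.12.5 and cutadapt 1.3, whose steps are not described. How the 2 samples were pooled, and whether duplicate reads or reads with several matches were removed, is not given in the sources used here. Either step can change depth in copied genes.

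Strands were summed with Python 3.11.15, numpy 2.4.6, pandas 2.3.3 and scipy 1.17.1, and counts were not normalized. The autosomes held 133245671 read counts, 6.54 per CpG, of which 66.3% were methylated. Gene spans and promoters came from RefSeq (GRCm38.p6), and all 325361 CpGs of its autosomal promoters were at listed positions. Medians are over genes with at least 20 read counts, and summed counts use every member, with overlapping windows joined. Calls and intervals were run on simulated counts, drawn independently at set levels with the real depths. Linked CpGs, duplicate reads and misplaced copies were not simulated, so this checked the computation only. Annotated starts are known for 322 members.

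The members, gene lists and named genes were chosen with earlier results of these data known. Named were, per family, the 3 highest and 3 lowest body levels, single ends and body minus flank values, the 3 bodies with the largest share of CpGs without a read, family C, receptors with a known ligand, and every member with a low or intermediate end. Alternatives were other minimums, windows, thresholds and flanks, single strands, and leaving out deep or shallow CpGs, pseudogenes or chromosomes.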

Additional observations from a re-analysis of the deposited data

How the results depend on the processing

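No paired analysis was possible because the table has no column per sample, and leaving out a replicate was not possible for the same reason. Of 132 recomputed values, 80 moved by less than the counting interval of the summed counts (by less than 1.5 times, for counts), 40 moved further and 12 changed sign. Alternatives with 5 read counts, and the ends without chromosome 7, were chosen after seeing the data. Depth limits single genes, with a median body interval 33.6 points wide in V1R and 12.3 points in V2R, and a median interval for both ends of 30.3 points in V1R and 32.2 points in V2R.

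The V1R minus V2R median of the ends, 4.17 points, was -1.09 with 50 read counts, -1.33 on the plus strand, -0.10 with CpGs of at least 5 reads, 0.98 on the minus strand, 2.01 as a mean of CpG fractions and 1.24 with ends of 250 bp. For the body, 3.77 points, it was -0.081 with 500 bp cut at each end and 5.33 on the minus strand. It was 2.54 without pseudogenes, 2.13 without chromosome 13 and 0 with 5 read counts. Levels with cut ends, here and below, rest on 16 V1R and 167 V2R bodies. The median of the V1R ends was 73.6% with 50 read counts, 69.3% as a mean of fractions, 69.4% on the plus and 72.8% on the minus strand, 69.8% with ends of 1000 bp and 69.2% with 5 read counts. In V2R ends it was 74.7% with 50 read counts, 70.7% on the plus and 71.9% on the minus strand, 71.05% with CpGs of at least 5 reads, 65.2% without pseudogenes, 70.2% with 250 bp and 65.4% with 1000 bp. V1R bodies were at 72.5% on the minus strand, 69.0% without pseudogenes, 66.8% with cut ends and 66.7% with 5 read counts. V2R bodies were at 66.4% both as a mean of fractions and without pseudogenes, and at 67.2% with CpGs of at least 5 reads.

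Body minus flanks in V1R, 1.09 points, was -0.87 with 10 read counts, -0.28 without pseudogenes, -0.76 with cut ends, -0.12 with 100 kb centred on the gene, -0.44 with flanks free of annotated genes and -0.16 with flanks free of other receptor genes. In V2R, -1.38 points, it was -1.96 as a mean of fractions, -2.50 on the plus and -0.38 on the minus strand, -2.62 without pseudogenes, -1.80 with cut ends, -2.41 centred, -3.16 free of genes and -2.35 free of receptors. High bodies, 129 in all, numbered 78 on the plus strand, 84 without pseudogenes and 27 with thresholds of 30% and 70%. Low or intermediate ends, 3 in all, were 9 with 1000 bp windows and 9 with those thresholds. The share of body CpGs without a read was 4.15 points lower in V1R than in V2R when CpGs of overlapping genes were counted once per gene, but 0.58 points higher without pseudogenes. With overlapping spans joined, protein-coding genes alone had 32.7% in V1R and 32.5% in V2R. Median reads per body CpG, 0.32 lower in V1R, was 0.41 higher with cut ends. The cause of these shifts was not tested.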
